A study of Mus musculus with 8 samples.

Results

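The genes described here encode the ligands, receptors, secreted modulators and core intracellular parts of the Wnt pathway, and their expression was set side by side in the Sox2-positive and the Sox2-negative fraction of mouse medulloblastomas. They were chosen by a rule on symbols, with earlier results of these data known. It took in every Wnt, Frizzled (Fzd), Sfrp, Dkk, R-spondin (Rspo) and Dishevelled (Dvl) gene and the Tcf7-like factors. It also took in Lrp5, Lrp6, Axin1, Axin2, Lgr4 to Lgr6, Rnf43, Znrf3, Wif1, Lef1, Ctnnb1 and Apc. The rule found 61 genes among 22180 with a probe set of their own. The tumours came from Sox2eGFP; Patched1+/- mice (bred from Patched1+/- CD1 and Sox2eGFP B6 parents), which carry 1 inactive copy of the Hedgehog receptor gene and report Sox2 expression as green fluorescence. All mice had been irradiated as newborns with 3 Gy, and tumours were collected at over 70 days of age, once signs of disease appeared. After cells bearing CD45 or Ter119 had been removed, the remainder was sorted into GFP-positive and GFP-negative fractions. There were 4 Affymetrix arrays of each fraction, each holding RNA of 3 pooled tumours, and the labels do not say whether equally numbered pools of the fractions came from the same tumours.

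Wnt proteins are secreted lipid-modified ligands that bind Frizzled receptors together with the co-receptors Lrp5 and Lrp6. Binding recruits Dishevelled and inactivates a complex of Axin and Apc that otherwise marks beta-catenin for destruction, and beta-catenin then acts in the nucleus with TCF/LEF factors. Sfrp and Wif1 proteins bind Wnts outside the cell, Dkk proteins block the Lrp co-receptors, and R-spondins acting through Lgr receptors hold back Rnf43 and Znrf3, membrane ubiquitin ligases that remove Frizzled from the surface. In the developing cerebellum the pathway is known from the patterning of the midbrain-hindbrain border, and in oligodendrocyte progenitors from the timing of differentiation. Beta-catenin mutations define a form of medulloblastoma other than the Hedgehog-driven form that these mice model.

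The reference table of RefSeq promoters (assembly GRCm38.p6) held 49 promoters of 40 of the 61 genes. The values given further on show 9 genes that differed between the fractions, and of these the table held Fzd9, Tcf7l2, Rnf43, Fzd7 and Sfrp2. The 250 bases before the annotated start are shown for the member with the largest rise (Fzd9), the TCF/LEF factor that rose (Tcf7l2) and the Frizzled gene that fell most (Fzd7). They were searched on both strands for the TCF/LEF core in its forms CTTTGA and CTTTGT, the SOX core ACAATG and the GLI core CCACCCA, and capitals mark every match. CTTTGT also fits the loose consensus of SOX factors, so a match to it does not tell the families apart. The windows are chr5:135251048-135251297 on the minus strand for Fzd9, chr19:55741560-55741809 on the plus strand for Tcf7l2 (for which the table lists another start, whose window is not printed) and chr1:59481897-59482146 on the plus strand for Fzd7, each written 5′ to 3′ along its gene.
Fzd9: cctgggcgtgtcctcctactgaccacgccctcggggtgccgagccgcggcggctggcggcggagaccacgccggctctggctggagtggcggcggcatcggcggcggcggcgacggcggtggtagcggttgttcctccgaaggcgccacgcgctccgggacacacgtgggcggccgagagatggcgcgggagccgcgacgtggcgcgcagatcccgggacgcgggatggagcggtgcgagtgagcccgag
Tcf7l2: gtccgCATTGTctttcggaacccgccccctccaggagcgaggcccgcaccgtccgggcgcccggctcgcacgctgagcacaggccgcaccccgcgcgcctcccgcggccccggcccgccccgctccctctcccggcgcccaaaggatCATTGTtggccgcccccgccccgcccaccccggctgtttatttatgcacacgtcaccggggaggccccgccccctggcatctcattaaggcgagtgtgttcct
Fzd7: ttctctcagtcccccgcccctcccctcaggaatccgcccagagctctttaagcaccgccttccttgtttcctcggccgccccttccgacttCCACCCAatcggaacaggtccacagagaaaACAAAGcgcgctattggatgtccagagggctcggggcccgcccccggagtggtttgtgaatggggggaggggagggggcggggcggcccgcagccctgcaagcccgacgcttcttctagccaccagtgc
The Fzd9 window held 0 matches. The Tcf7l2 window held the SOX core at 2 places, whose first letters as printed lay 245 and 103 bases before the start, both as the reverse complement CATTGT. The window of its other start, chr19:55895071-55895320 on the plus strand, held 0 SOX cores and 1 TCF/LEF core of the form CTTTGT, 14 bases before that start. The Fzd7 window held 1 GLI core, 159 bases before the start, and 1 TCF/LEF core of the form CTTTGT, printed as its reverse complement ACAAAG, 129 bases before it. Over all 32851 promoters of this length, 13.8% held CTTTGA, 16.5% CTTTGT, 10.7% ACAATG and 8.11% CCACCCA, against 10.2%, 16.3%, 10.2% and 4.08% of the 49 promoters of Wnt module genes. The matches are a description of these letters and were not tested for binding.

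Values are the deposited log2 expression values, 1 probe set per gene, and differences are Sox2-positive minus Sox2-negative. Each gene was tested with limma, a linear model that draws the spread of each gene toward a value common to all genes. P-values were adjusted over all 22180 genes, with calls made below 0.05. Of the 61 genes, 5 were higher and 4 lower in Sox2-positive cells and 52 did not pass, so 14.8% were called where 8.47% of all genes were. By direction, 8.20% were called higher (5.96% of all genes) and 6.56% lower (2.52% of all genes), and the median difference was -0.01 (all genes -0.03). For 9 of the 61 genes (14.8%) the 4 values of one fraction all lay above those of the other, close to the 13.7% of all genes. The genes that rose were Fzd9, Tcf7l2, Rnf43, Fzd8 and Wnt7b, and those that fell were Sfrp1, Fzd7, Fzd2 and Sfrp2.

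**Figure D1:**
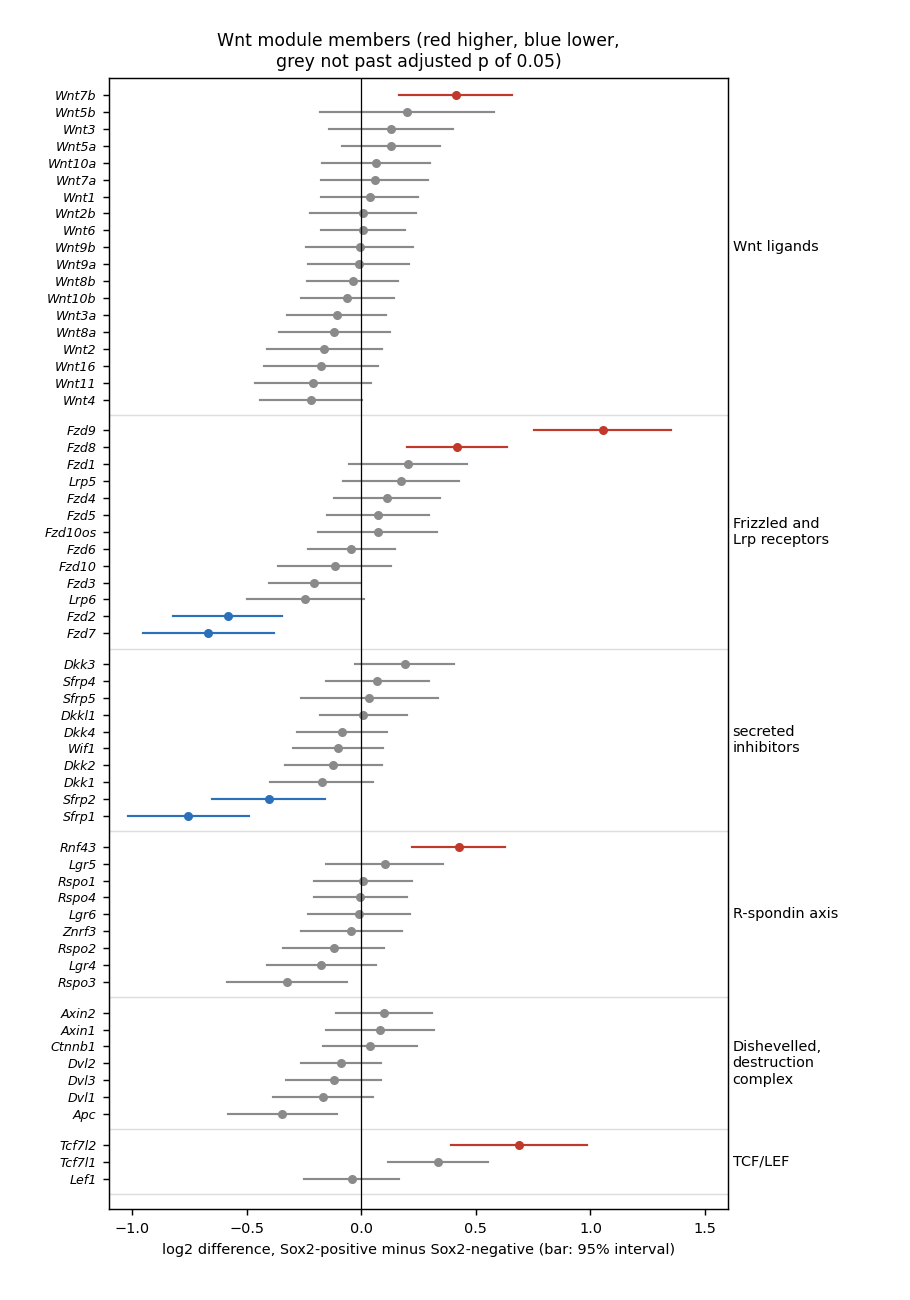
Log2 difference (Sox2-positive minus Sox2-negative) of each of the 61 genes, grouped by role, with the 95% interval from limma as a bar. Red genes were called higher, blue lower and grey neither; differences run from -0.75 (Sfrp1) to 1.05 (Fzd9), and the called genes sit at both ends of the receptors.

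The table gives no detection call. The upper quartile (5.80) of the levels of 1390 olfactory and vomeronasal receptors, genes of sensory epithelia, was taken as a guide to dim values. Both group means lay below that guide for 28 of the 61 genes, among them 15 of the 19 ligands and the called genes Fzd8, Fzd2 and Wnt7b. A fold between such values understates a difference if the probe set was near background. Since each array holds a sorted population, fewer cells of a kind using a gene and less of its RNA per cell cannot be told apart.

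The sort and the tumour cells were checked against known genes. Sox2 lay between 5.67 and 6.36 in the Sox2-positive pools and between 4.04 and 4.60 in the Sox2-negative pools. Ptprc, which encodes CD45, lay between 4.39 and 4.77 over all 8 arrays. Correlations between arrays were 0.973 or higher within fractions, and no array stood apart. All 10 oligodendrocyte progenitor markers rose (mean log2 level of the list 8.51 to 9.19 in Sox2-positive and 6.15 to 6.17 in Sox2-negative pools), as did 7 of 10 astrocyte markers (6.87 to 7.52 against 6.13 to 6.21) and 5 of 9 mature oligodendrocyte markers (6.35 to 7.54 against 5.88 to 6.06). All 12 granule neuron progenitor markers fell (7.78 to 8.10 against 8.72 to 9.01), with 5 of 12 markers of neuronal differentiation (7.26 to 7.54 against 7.68 to 8.10). Over all genes, 5.96% were called higher and 2.52% lower. The part of these cell type differences in the Wnt genes below was not tested. Of markers of cells outside the tumour lineage, 0 of 12 endothelial and 0 of 7 choroid plexus and ependymal genes passed the limma test. Likewise 0 of 11 microglial and macrophage genes and 0 of 1 red blood cell genes passed, where 8.47% of all genes did. At an unadjusted limma p under 0.05 these counts were 1, 3, 2 and 0, in that order, where 4454 of all 22180 genes were. For 9, 2, 7 and 1 genes of the same lists, in that order, both means lay below the guide to dim values. There a missing call says little. Rgs5 was higher among 8 pericyte and mural genes (log2 difference 0.37) and Pdgfra, also a progenitor gene, among 10 meningeal genes (2.06), of which 7 had differences below 0 (median -0.07). The mean level of the meningeal list, Pdgfra included, was 6.03 to 6.08 in Sox2-positive and 5.85 to 5.94 in Sox2-negative pools, and that of the endothelial list 5.23 to 5.29 and 5.28 to 5.42. The choroid plexus and ependymal list lay at 5.95 to 6.18 against 6.23 to 6.55.

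The measured values of ligand genes differed little between the fractions, most of them at dim levels. Of 19 Wnt genes, 1 was higher (5.26%, where 5.96% of all genes were) and 0 were lower, with a median difference of -0.01. For 15 of the 19 both means lay below the guide to dim values, where a small difference says little. Wnt7b, a ligand that acts on brain endothelium and on neurons, was at 5.82, 5.91, 5.69 and 5.55 in Sox2-positive pools 1 to 4 and at 5.27, 5.09, 5.42 and 5.55 in Sox2-negative pools 1 to 4. The groups do not overlap, but only narrowly, as the pools numbered 4 round to the same value. Its difference was 0.41 (SE 0.11, 1.33-fold, adjusted p = 0.0414). This call ended with equally numbered pools as a block (adjusted p = 0.0591) and without any of Sox2-positive pools 1 to 3 or Sox2-negative pools 1 to 3 (0.0537 to 0.136). The other 18 ligands had differences from -0.22 (Wnt4, a ligand known from kidney and gonad development) to 0.20 (Wnt5b, which mainly signals without beta-catenin), and none of their adjusted p-values was under 0.253. Wnt10a, the ligand with the highest mean, had means of 6.64 ± 0.17 (Sox2-positive) and 6.57 ± 0.16 (Sox2-negative) (mean ± SD, n = 4 each), and its 95% interval ran from -0.17 to 0.30. Wnt1, the ligand that patterns the midbrain-hindbrain border, and Wnt3, a ligand of early axis formation, had means of 4.39 and 4.41 in Sox2-positive cells and 4.35 and 4.28 in Sox2-negative cells, all below the guide to dim values. Wnt7a, made by granule neurons in the mouse cerebellum, was at 5.80 and 5.74 (difference 0.06, 95% interval -0.18 to 0.29).

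Receptor genes moved in opposite directions. Among 13 genes of this role, 2 rose (15.4%, all genes 5.96%) and 2 fell (15.4%, all genes 2.52%), with a median difference of 0.07. Fzd9, a Frizzled of neural precursors, had the largest difference of all 61 genes. It was at 5.97, 6.18, 6.35 and 6.00 in Sox2-positive pools 1 to 4 and at 5.27, 4.65, 5.25 and 5.11 in Sox2-negative pools 1 to 4. Every Sox2-positive pool lay above every Sox2-negative pool by a wide gap, and the lowest value was that of Sox2-negative pool 2. The difference was 1.05 (SE 0.14, 2.07-fold, adjusted p = 0.000207), and the Sox2-negative mean (5.07) lay below the guide to dim values.

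Fzd8, a Frizzled of the forebrain and of neural progenitors, was at 5.52, 5.71, 5.46 and 5.56 in Sox2-positive pools and at 4.99, 5.03, 5.30 and 5.28 in Sox2-negative pools, in order of pool number. The groups did not overlap, and Sox2-negative pools 1 and 2 lay furthest from the Sox2-positive pools. Its difference was 0.42 (SE 0.10, 1.33-fold, adjusted p = 0.0195), which was no longer past the threshold when Sox2-positive pool 2 (0.0732) or Sox2-negative pool 1 (0.0709) was left out. Fzd7, a receptor of both beta-catenin and planar polarity signalling, was at 7.14, 7.07, 7.09 and 7.30 in Sox2-positive pools and at 7.73, 8.24, 7.53 and 7.77 in Sox2-negative pools. The Sox2-positive pools were tightly grouped, and Sox2-negative pool 2 was the highest. Fzd7 fell by 0.67 on the log2 scale (SE 0.13, 1.59-fold lower, adjusted p = 0.00536). Fzd2, a receptor that can bind Wnt5a, was at 4.75, 4.79, 4.47 and 4.97 in Sox2-positive pools and at 5.21, 5.46, 5.30 and 5.33 in Sox2-negative pools. Here too the groups did not overlap, at values that were dim in both, and Fzd2 fell by 0.58 (SE 0.11, adjusted p = 0.00379). The calls of Fzd9, Fzd7 and Fzd2 held in all 14 alternative fits.

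The remaining receptor genes had differences from -0.24 to 0.20. Lrp6, the co-receptor with the highest mean of this role, had means of 8.41 ± 0.15 (Sox2-positive) and 8.65 ± 0.22 (Sox2-negative) (mean ± SD, n = 4 each; 95% interval of the difference -0.50 to 0.01, adjusted p = 0.273). Its close relative Lrp5 had a difference of 0.17. Fzd3, which guides axons through planar polarity signalling, had a difference of -0.21 (adjusted p = 0.228), and Fzd1 one of 0.20 (0.387). Fzd4, a receptor for the ligand Norrin as well as Wnts, had a difference of 0.11. Differences of Fzd5, Fzd6 and Fzd10 were 0.07, -0.04 and -0.12. The rule also took in Fzd10os, a transcript named for its place opposite Fzd10 and not a receptor, with a difference of 0.07. Fzd5, Fzd6, Fzd10 and Fzd10os were dim in both fractions.

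**Figure D2:**
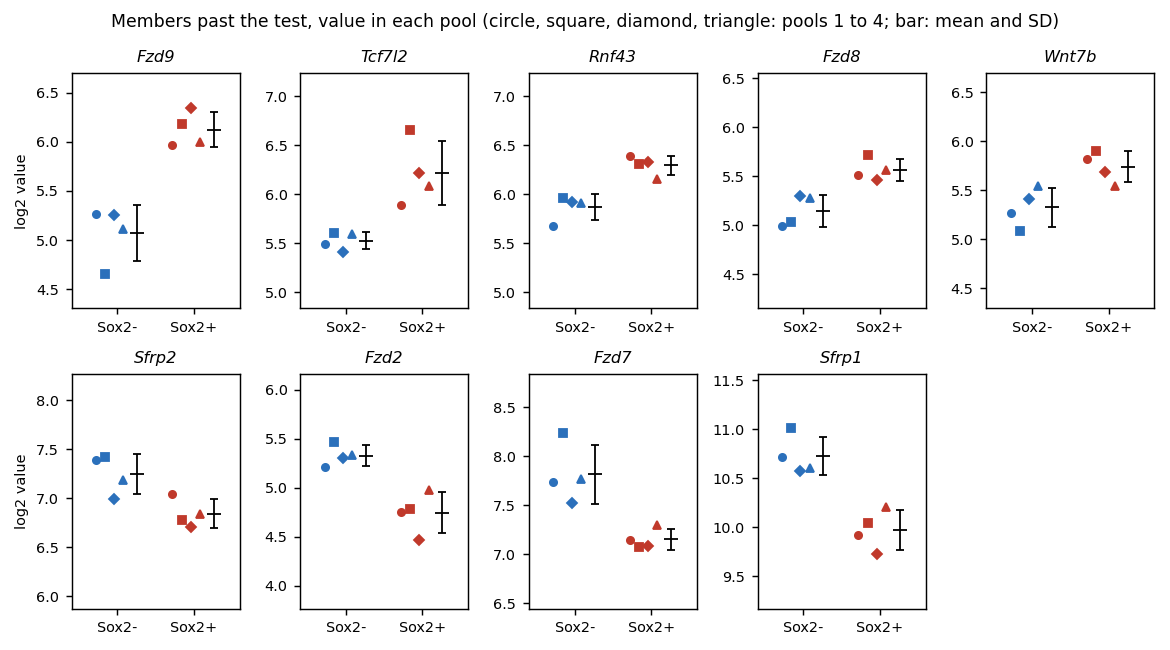
Deposited log2 value of the 9 called genes in each pool (symbols 1 to 4 by pool number, blue Sox2-negative, red Sox2-positive), with the mean and SD of 4 pools in black; every vertical axis spans the same range. The groups are apart for 8 genes, and for Sfrp2 Sox2-positive pool 1 (7.05) overlaps Sox2-negative pool 3 (6.99).

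Among secreted inhibitors only Sfrp genes passed the test: 2 of 10 fell (20%, all genes 2.52%) and 0 rose, with a median difference of -0.09. Sfrp1, a secreted Frizzled-related protein that binds Wnts and a known target of Hedgehog signalling, was at 9.91, 10.04, 9.73 and 10.20 in Sox2-positive pools 1 to 4 and at 10.72, 11.01, 10.58 and 10.61 in Sox2-negative pools. All Sox2-positive pools lay below all Sox2-negative pools, and the values stayed far above the dim range in both. Sfrp1 fell by 0.75 (SE 0.12, 1.69-fold lower, adjusted p = 0.00119). Sfrp2, its relative, was at 7.05, 6.78, 6.70 and 6.84 in Sox2-positive pools and at 7.39, 7.43, 6.99 and 7.18 in Sox2-negative pools. The groups overlapped in Sox2-positive pool 1 and Sox2-negative pool 3. Sfrp2 fell by 0.40 (SE 0.11, 1.32-fold lower, adjusted p = 0.0436), which was lost on leaving out any of Sox2-positive pools 2, 3 and 4 and Sox2-negative pools 1, 2 and 4 (0.0677 to 0.135). It also ended with the mean of its probe sets (difference -0.20, adjusted p = 0.328), because its dimmer probe set, at a mean of 4.88, had a difference of 0.01.

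The other 8 inhibitor genes lay between -0.17 and 0.19. Dkk3, a divergent member of its family, had a difference of 0.19 (adjusted p = 0.330), and Dkk1, a blocker of Lrp5 and Lrp6, one of -0.17 (0.400). Dkk2 and Dkk4 differed by -0.12 and -0.08. Wif1, which binds Wnts outside the cell, had means of 6.49 (Sox2-positive) and 6.59 (Sox2-negative) (95% interval of the difference -0.30 to 0.09). Sfrp4 and Sfrp5, with differences of 0.07 and 0.03, and Dkkl1, a gene related in sequence to the Dkk family (0.01), were dim in both fractions. Dkk1 and Dkk4 were also dim in both.

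In the R-spondin axis 1 of 9 genes was higher (11.1%, all genes 5.96%) and 0 were lower, with a median difference of -0.01. Rnf43, a ligase that clears Frizzled from the surface and a target of beta-catenin in the intestine, was at 6.39, 6.31, 6.33 and 6.16 in Sox2-positive pools and at 5.68, 5.96, 5.92 and 5.91 in Sox2-negative pools. The groups did not overlap, and Sox2-negative pool 1 was the lowest. Its difference was 0.43 (SE 0.09, 1.34-fold, adjusted p = 0.0112), past the test in all 14 alternatives. Znrf3, its paralog with the same activity, did not pass: its means were 7.28 ± 0.05 (Sox2-positive) and 7.32 ± 0.19 (Sox2-negative) (mean ± SD, n = 4 each; 95% interval -0.27 to 0.18). Whether the paralogs differ in their response was not tested. Rspo3, an R-spondin that acts through Lgr4 and Lgr5, had a difference of -0.32 (adjusted p = 0.136), past the test only with equally numbered pools as a block (0.0423). The other R-spondins and the Lgr receptors lay between -0.17 (Lgr4) and 0.10 (Lgr5, a stem cell marker of the intestine).

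Of the 7 genes of Dishevelled, the destruction complex and beta-catenin, 0 passed the limma test (8.47% of all genes did), with a median difference of -0.09. At an unadjusted limma p under 0.05 the count was 1 (Apc), where 4454 of all 22180 genes were. Ctnnb1, which encodes beta-catenin, was at 8.71, 8.86, 8.71 and 8.73 in Sox2-positive pools and at 8.71, 8.93, 8.62 and 8.61 in Sox2-negative pools. The groups overlapped fully (difference 0.04, 95% interval -0.17 to 0.24, adjusted p = 0.881). Axin2, a scaffold of the destruction complex that is widely used as a readout of beta-catenin activity, was at 6.34, 6.39, 6.19 and 6.39 against 6.27, 6.02, 6.24 and 6.38. Its groups overlapped too (difference 0.10, 95% interval -0.11 to 0.31, adjusted p = 0.639), and its dimmer probe set gave 0.05. An increase in the measured Axin2 value of more than 0.31 on the log2 scale thus lay outside the interval. Beta-catenin activity itself was not tested. Apc, the scaffold that holds beta-catenin for destruction, was at 8.21, 8.33, 8.40 and 8.13 in Sox2-positive pools and at 8.52, 8.65, 8.87 and 8.41 in Sox2-negative pools. The groups lay just apart, at a difference of -0.35 (SE 0.11, adjusted p = 0.0750). Apc passed with equally numbered pools as a block (0.0262), with quantile normalization (0.00934) and without Sox2-negative pool 4 (0.0435). Dvl3, the Dishevelled gene with the highest mean, had a difference of -0.12 (95% interval -0.33 to 0.09), Dvl1 one of -0.17, Dvl2 one of -0.09 and Axin1 one of 0.08.

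Of the TCF/LEF factors, through which beta-catenin reaches its target genes, 1 of 3 measured rose (33.3%, all genes 5.96%) and 0 fell. Tcf7 is not analysed here. Tcf7l2, a factor used in the oligodendrocyte lineage as progenitors differentiate, was at 5.89, 6.66, 6.22 and 6.09 in Sox2-positive pools and at 5.50, 5.60, 5.41 and 5.60 in Sox2-negative pools. The Sox2-negative pools were close together below the guide to dim values, and Sox2-positive pool 2 was the highest. Its difference was 0.69 (SE 0.14, 1.61-fold, adjusted p = 0.00585), past the test in all 14 alternatives. Tcf7l1, mainly a repressor of Wnt targets in stem cells, was at 6.59, 6.93, 6.99 and 6.79 against 6.60, 6.39, 6.50 and 6.48. Only Sox2-positive pool 1 reached into the Sox2-negative range; the difference was 0.33 (SE 0.10, adjusted p = 0.0618), and without that pool it was 0.41 (0.0207). Lef1, an activating factor and itself a common target of the pathway, had means of 5.52 ± 0.12 (Sox2-positive) and 5.56 ± 0.12 (Sox2-negative) (mean ± SD, n = 4 each). Both means lay below the guide to dim values, and the 95% interval of the difference ran from -0.25 to 0.16.

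**Figure D3:**
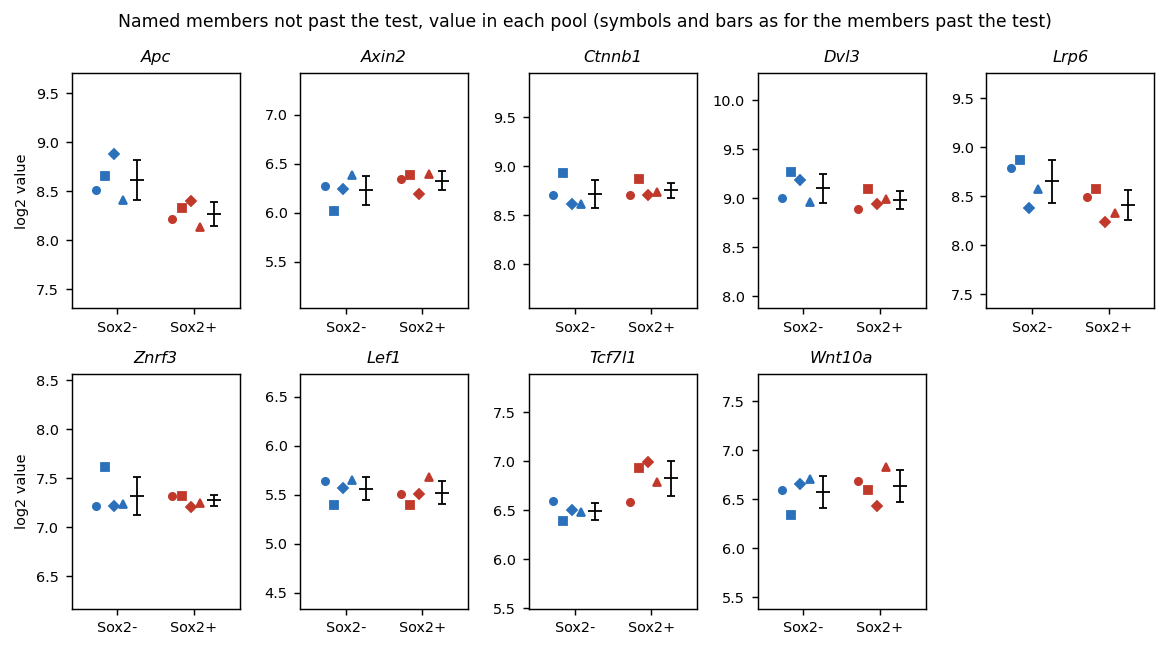
Deposited log2 value in each pool of the 9 named genes that did not pass the test, drawn as for the called genes. Values of Ctnnb1, Axin2, Lef1, Znrf3, Wnt10a, Dvl3 and Lrp6 overlap between the fractions, Tcf7l1 overlaps through Sox2-positive pool 1 alone, and for Apc the groups lie just apart.

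The wider pathway was described through 113 other genes in lists of known function, of which 10 were higher and 7 lower (15% called; median difference -0.04). The shares were 8.85% higher and 6.19% lower, where 5.96% and 2.52% of all genes were. With equally numbered pools as a block, 16 were higher and 7 lower, while the counts over all genes rose from 1321 to 1572 higher and from 558 to 768 lower. Of 20 genes of ligand secretion and extracellular modulation, 3 were higher (15%, all genes 5.96%) and 1 lower (5%, all genes 2.52%). With the block these counts were 6 and 1, with Apcdd1, Ndp and Wls added. The heparan sulfate 6-O-endosulfatases, which alter how Wnts are held at the cell surface, both rose: Sulf2 was at 9.94, 10.84, 10.43 and 10.19 against 6.13, 6.24, 6.23 and 5.74 (adjusted p = 5.26e-09). Sulf1 was at 6.33, 6.61, 6.51 and 6.46 in Sox2-positive and 5.71, 5.51, 5.55 and 5.53 in Sox2-negative pools, a 1.87-fold rise (adjusted p = 2.35e-05). Its Sox2-negative mean (5.57) lay below the guide to dim values. Draxin, a secreted axon guidance protein that antagonises Wnt in chick and fish, fell by 0.77 (adjusted p = 0.0312), which was lost on leaving out any of Sox2-positive pools 2 and 3 and Sox2-negative pools 1, 2 and 4 (0.0505 to 0.0900).

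Of 18 genes of planar polarity and alternative receptors, 3 were higher (16.7%, all genes 5.96%) and 2 lower (11.1%, all genes 2.52%). Both genes that fell encode large cadherins of the Celsr family, which carry planar polarity between cells and guide axons. Celsr3 was at 7.05, 6.60, 6.57 and 7.09 in Sox2-positive and 8.14, 7.83, 7.63 and 7.95 in Sox2-negative pools, and fell by 1.06 (SE 0.14, adjusted p = 0.000241). Celsr2 fell by 0.71 (SE 0.10, adjusted p = 0.000412). Fat4, an atypical cadherin, was 1.55-fold higher (adjusted p = 0.00285), and its Sox2-negative mean (5.57) lay below the guide to dim values. The call was lost when its probe sets were averaged (0.134), and the dimmer of them had a difference of -0.07.

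Of 26 genes of beta-catenin destruction and its regulators 0 passed the limma test (8.47% of all genes did), with a median difference of -0.09. At an unadjusted limma p under 0.05 the count was 7, where 4454 of all 22180 genes were. The largest difference was that of Nkd1, an inhibitor of Dishevelled and a target of the pathway, at 7.35 ± 0.16 against 7.77 ± 0.24 (mean ± SD, n = 4 each; difference -0.42, adjusted p = 0.0525). With quantile normalization 4 genes of the list were lower (Csnk1e, Csnk1g1, Dixdc1 and Nkd1), while over all genes the lower count rose from 558 to 847. Nkd1 passed with that setting (0.0210), with array weights (0.0468), with the dimmest genes left out (0.0435) and without Sox2-negative pool 4 (0.0101). Of 25 transcription partners of beta-catenin, 2 were lower (8%, all genes 2.52%) and 0 higher. With the block 2 were higher (Ctnnbip1 and Tle2), and with quantile normalization 1 was (Tle2). Over all genes 1572 and 1282 were higher in these fits. Tle1, a co-repressor that binds TCF/LEF factors, fell by 0.46 (adjusted p = 0.0333), and Hbp1, a repressor of Wnt target genes, fell by 0.35 (0.0204). The call of Tle1 ended in 6 of 15 alternatives (0.0556 to 0.106), each of them a fit without 1 pool or with the mean of its probe sets, and that of Hbp1 on leaving out any of Sox2-positive pools 1, 2 and 4 and Sox2-negative pool 4 (0.0504 to 0.0639).

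Of 27 genes reported in several tissues as targets of beta-catenin, 4 were higher (14.8%, all genes 5.96%) and 2 lower (7.41%, all genes 2.52%). The median difference was 0.01. With the block 6 were higher, with Apcdd1 and Vegfa added, and 2 lower, where 1572 and 768 of all genes were. Bmp4, a secreted BMP ligand, was at 6.13, 7.26, 6.26 and 6.51 in Sox2-positive and 5.29, 5.20, 5.61 and 5.74 in Sox2-negative pools, 2.11-fold higher (adjusted p = 0.00406). Mycn, which granule neuron progenitors use downstream of Hedgehog signalling, fell by 0.79 (adjusted p = 0.00171). The Sox2-negative mean of Bmp4 (5.46) and the Sox2-positive mean of Mycn (5.59) lay below the guide to dim values. Tnfrsf19, a receptor found in stem and glial cells, was 1.58-fold higher (adjusted p = 0.000296). These genes answer to other pathways too, so the list is not specific to Wnt.

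**Figure D4:**
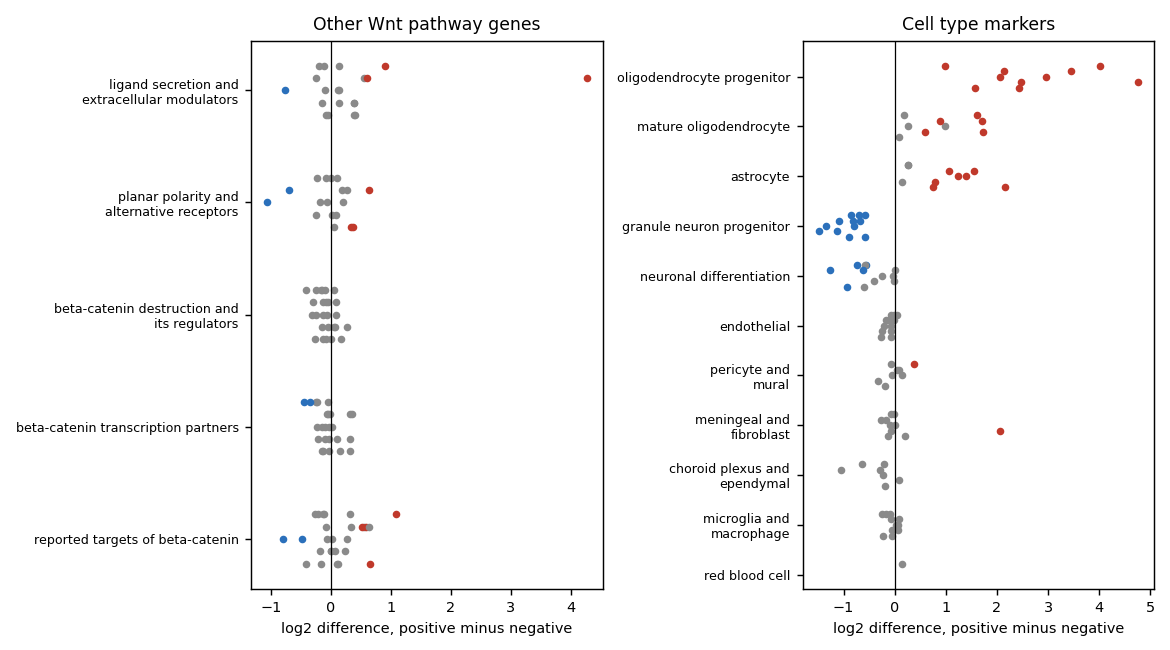
Log2 difference (Sox2-positive minus Sox2-negative) of each gene in the lists of other Wnt pathway genes (left) and of cell type markers (right); the small vertical offsets within a list only separate points. Red genes were called higher, blue lower and grey neither, and no gene of the beta-catenin destruction list was called in this fit (4 with quantile normalization), while all 10 oligodendrocyte progenitor markers lie to the right and all 12 granule neuron progenitor markers to the left.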

How the data were processed

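The authors deposited 1 log2 value per probe set and array, per the submitters' processing notes by RMA in Affymetrix Expression Console 1.2.0.20; their range (2.51 to 13.6) fits that scale. RMA equalises array distributions and compresses differences of dim genes; the number of arrays limits the precision. Of 41345 probe sets, 23521 had 1 gene symbol, 1814 several and 16010 none. For 1082 genes with several single-symbol probe sets the highest mean over 8 arrays was taken, which left 22180 genes, with no filter. The fit used lmFit and eBayes of limma 3.58.1 (R 4.3.3) with group as the only term, two-sided tests, Benjamini-Hochberg adjustment over all genes and a threshold of 0.05, and was tested on simulated data. P-values set each difference against the spread between pools of a fraction, without pairing of equally numbered pools.

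Members, lists and tests were chosen with earlier results of these data known. The text names every member past the test, the largest difference and highest mean in each role, Ctnnb1, Axin2, Lef1, Tcf7l2 and Sfrp1, and up to 3 called genes of each other pathway list (the largest where none passed). Other genes named were chosen after their values were seen. Deviations from group means correlated at 0.114 to 0.241 between arrays of equal number and at -0.284 to 0.161 otherwise, so the replicate number may pair the pools; this comes from the data, not the labels. The block was used as an alternative, beside quantile normalization, median centring, a variance trend, array weights, the mean of probe sets, dim genes left out and leaving out each array.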

Additional observations from a re-analysis of the deposited data

Results flagged for a closer look

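In groups of 4 pools, a single value lay far from the other 3 (by the gap to its neighbour over the range) in 11 of 146 groups checked, over 73 genes; chance alone flags about 5% of groups. Of these genes 10 are Wnt module members that did not pass the test. Sox2-negative pool 2 was low for Lrp5 (6.21, others 6.65 to 6.72) and Fzd5 (5.32, others 5.59 to 5.65) and high for Znrf3 (7.61, others 7.21 to 7.24). Sox2-positive pool 2 was low for Dkk1 (5.24, others 5.59 to 5.66) and Dvl1 (6.64, others 6.90 to 6.93). Sox2-positive pool 1 was high for Fzd10os (5.95, others 5.63 to 5.67) and low for Tnfrsf19 (6.57, others 6.81 to 6.85), the only gene of the 11 past the test. Among the remaining flags, Sfrp4 was at 4.94 in Sox2-negative pool 1 (others 5.32 to 5.35), Wnt2 at 5.51 in Sox2-negative pool 3 (others 5.85 to 5.89), Wnt8a at 5.74 in Sox2-positive pool 3 (others 6.06 to 6.12) and Wnt10b at 5.03 in Sox2-positive pool 4 (others 4.76 to 4.80).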

How the results depend on the processing

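The 5 higher and 4 lower Wnt module genes became 3 to 5 and 3 to 4 when 1 array was left out. The count of higher genes was 3 when Sox2-positive pool 2 was left out, and also when Sox2-negative pool 1 was, with Fzd8 and Wnt7b lost. With the replicate block it was 4 higher (Wnt7b lost) and 6 lower (Apc and Rspo3 added), and over all genes 1572 higher and 768 lower. The calls of Fzd9, Fzd7, Fzd2, Sfrp1, Tcf7l2 and Rnf43 held in all alternatives run. Over all genes, 1321 higher became 995 to 1334 and 558 lower became 309 to 591 with 1 array left out. With quantile normalization 847 were lower, and higher genes made up 60.2% of calls (70.3% in the main fit). Of the other pathway genes, the 10 higher became 7 to 13 and the 7 lower 3 to 7 without 1 array; 16 were higher with the replicate block and 11 lower with quantile normalization. Signs turned near 0 or at a dimmer probe set, the latter for the called genes Sfrp2 and Fat4: Znrf3 with array weights (0.0021), Ctnnb1 with quantile normalization (-0.052), and the dimmer probe sets, Sfrp2 (0.014) and Fat4 (-0.070), an alternative chosen after seeing the data. With 1 array left out, differences ran from -0.080 to 0.053 for Znrf3, from -0.014 to 0.133 for Wnt10a and from -0.099 to 0.0013 for Lef1. The causes were not tested. Signal near background limits what can be said of most ligands.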
